A study of Mus musculus with 40 samples.

Results

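The genes described here are 10 members of the vascular endothelial growth factor (VEGF) and platelet-derived growth factor (PDGF) families, chosen by name from the 26132 genes counted in this study of the mouse mammary epithelium and stroma. They comprise 7 genes for secreted ligands (Vegfa, Vegfb, Vegfc, Vegfd, Pdgfa, Pdgfb and Pdgfc) and 3 for receptors (Kdr, Pdgfra and Pdgfrb), and all 10 were counted both in adult and in pubertal glands. RNA-seq was run on 4 cell populations, luminal cells, basal cells, adipocytes and fibroblasts, which were isolated from the 3rd and 4th mammary glands of wildtype FVB/N mice. The 32 adult libraries came from mice of 14 to 16 weeks in proestrus, estrus, metestrus or diestrus, with 2 libraries per cell population and stage, and the 8 pubertal libraries came from mice of 34 to 36 days, with 2 libraries per cell population. Each adult library was made from the pooled cells of 2 to 3 mice. Replicate 1 was early and replicate 2 late within the stage where vaginal cytology and histology told these apart. Where they did not, mice were pooled by cell number to even out the RNA input. Such replicates need not be early or late, and which ones these are was not given. Each pubertal library pooled 4 mice, and 2 of 3 replicates were kept for their RNA quality. Luminal cells (EpCAM high, CD49f medium), basal cells (EpCAM medium, CD49f high) and fibroblasts (negative for both) were sorted after removal of cells positive for CD45, CD31 or Ter119, which mark leukocytes, endothelial cells and red blood cells. Adipocytes were the floating fraction and were not sorted, so blood and vessel cells were not removed from them.

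Library totals ran from 8991222 to 22760563 counts, with a median of 16983304. Each of the 4 populations held its defining marker in adults: Krt8 lay between 7160 and 9434 CPM (counts relative to library size, TMM-scaled) in luminal cells, Krt5 between 1344 and 2405 CPM in basal cells, Adipoq between 342 and 1553 CPM in adipocytes and Col1a1 between 2461 and 9024 CPM in fibroblasts. The adipocyte library of diestrus replicate 2 stood apart, with 10 adipocyte markers summing to 5686 CPM against 14110 to 23580 CPM in the other 7 adult adipocyte libraries, 10 basal markers at 4418 CPM and 10 epidermal markers at 2334 CPM. Pubertal adipocyte replicate 2 was similar, with 5077, 2613 and 1220 CPM for the same lists. Endothelial markers were present in both stromal populations, although the fibroblasts were sorted as CD31 negative: the sum of 12 such genes had a median of 2810 CPM in adult fibroblasts and 1540 CPM in adult adipocytes, against 37.3 CPM in basal and 49.3 CPM in luminal cells. In these bulk libraries fewer cells of a type and less RNA per cell cannot be told apart.

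VEGF ligands are secreted proteins that act on receptor tyrosine kinases of blood and lymphatic endothelium. Vegfa is the principal driver of blood vessel growth and acts through Kdr (VEGF receptor 2), Vegfb binds Flt1, and Vegfc and Vegfd act on lymphatic endothelium through Flt4 after proteolytic processing. PDGF ligands act on mesenchymal cells: Pdgfa and Pdgfc dimers signal through Pdgfra, the receptor of fibroblasts and their progenitors, and Pdgfb is the chief ligand of Pdgfrb, the receptor of pericytes and other perivascular cells. In the mammary gland the ducts are embedded in a fat pad that carries the vessels, and both the ducts and the stroma around them are remodelled in puberty and with each estrous cycle.

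The promoters of 3 members are printed because of where these genes, described further on, were highest: adult levels of Pdgfra were highest in fibroblasts, those of Vegfb in adipocytes, and those of Vegfd were high in both. Each runs from 250 bases before to 50 bases after the annotated start, 5′ to 3′ on the gene's strand, from RefSeq on GRCm38.p6. Capitals mark the matches, on either strand, to 4 motifs: the GC box (GGGCGG), the TATA box (TATAAA), the core of the hypoxia response element (ACGTG) and the CCAAT box (CCAAT).
Pdgfra, chr5:75152001-75152300, plus strand: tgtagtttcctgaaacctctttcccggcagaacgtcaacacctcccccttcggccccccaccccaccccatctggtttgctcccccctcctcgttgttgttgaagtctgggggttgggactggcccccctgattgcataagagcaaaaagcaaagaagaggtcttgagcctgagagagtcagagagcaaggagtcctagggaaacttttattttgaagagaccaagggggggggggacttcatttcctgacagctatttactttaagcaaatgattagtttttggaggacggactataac
Vegfb, chr19:6987602-6987901, minus strand: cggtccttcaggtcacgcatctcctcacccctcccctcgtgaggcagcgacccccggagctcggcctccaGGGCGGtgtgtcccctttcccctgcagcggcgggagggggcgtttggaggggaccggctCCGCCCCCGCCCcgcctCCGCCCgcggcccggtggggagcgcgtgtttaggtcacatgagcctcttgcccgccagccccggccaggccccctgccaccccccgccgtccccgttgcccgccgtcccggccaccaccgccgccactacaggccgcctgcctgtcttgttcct
Vegfd, chrX:164373272-164373571, plus strand: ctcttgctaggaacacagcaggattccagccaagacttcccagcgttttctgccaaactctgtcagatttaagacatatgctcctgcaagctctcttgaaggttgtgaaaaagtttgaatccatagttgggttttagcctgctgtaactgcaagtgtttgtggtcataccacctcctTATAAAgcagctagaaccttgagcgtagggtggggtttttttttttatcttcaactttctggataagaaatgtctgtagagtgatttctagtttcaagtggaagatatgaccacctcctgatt
The Vegfb promoter held 4 GC boxes and 31 CpG dinucleotides at 75.3% G and C, the Vegfd promoter held 1 TATA box and 2 CpG dinucleotides at 42.0%, and the Pdgfra promoter held none of the 4 motifs and 5 CpG dinucleotides at 51.0%. Over 32851 mouse promoters the median was 7 CpG dinucleotides and 52.7% G and C, and 35.7% held a GC box, 13.6% a TATA box, 19.6% a hypoxia core and 37.4% a CCAAT box. Promoter entries were examined for 8 of the 10 members, those other than Pdgfb and Pdgfrb. Among the remaining members, Kdr and Vegfc held 2 GC boxes each, the 2 Pdgfa promoters held 1 and 2 GC boxes, and Pdgfc held none of the motifs. The 2 Vegfa promoters held 1 and 2 GC boxes and 1 CCAAT box each, and 1 of them held the hypoxia core. These matches describe the letters in the window only.

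On GRCm38 the ligand genes lie at chr17:46016993-46032369 (Vegfa, minus strand), chr19:6982473-6987651 (Vegfb, minus), chr8:54077606-54187096 (Vegfc, plus), chrX:164373378-164402650 (Vegfd, plus), chr5:138976014-138997370 (Pdgfa, minus), chr15:79995874-80014977 (Pdgfb, minus) and chr3:81036416-81214040 (Pdgfc, plus). The receptor genes Kdr and Pdgfra lie on chromosome 5 at chr5:75932827-75978458 (minus) and chr5:75152292-75198215 (plus), and Pdgfrb lies on chromosome 18. Counts cover the exons of each gene. Annotated genes on the opposite strand overlap Pdgfa (6330403L08Rik) and Pdgfc (Gm16000), and the strand setting of the counting was not given in the sources used here.

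The first comparison asked in which cells of the adult gland each ligand and receptor was transcribed. Vegfa, Vegfc and Pdgfa were highest in fibroblasts and basal cells, Pdgfb and Pdgfc in basal cells, Vegfb in adipocytes, Vegfd and Kdr in fibroblasts and adipocytes, and Pdgfra and Pdgfrb in fibroblasts. Of 60 combinations of a member and a pair of cell populations, 55 passed an adjusted p of 0.05 in edgeR's quasi-likelihood test, with 8 libraries a population. By pair, the members passing were 10 of 10 between luminal and basal cells (73.6% of all genes tested), 7 between luminal cells and adipocytes (81.2%), 9 between luminal cells and fibroblasts (81%), 10 between basal cells and adipocytes (84.2%), 9 between basal cells and fibroblasts (77%) and 10 between adipocytes and fibroblasts (78.4%). Vegfd entered the luminal and basal comparison through its stromal libraries only, being near 0 in both epithelial populations, and nothing is read from that call. Luminal Kdr and Pdgfrb also stayed under 1 CPM in every library. Calls that set these groups, or epithelial Vegfd, against another population entered the fit through the other populations only, so their sizes are uncertain. Most genes differed between these populations, so the number of members that passed is close to the background, and the sizes and the order of the levels carry the description.

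**Figure D1:**
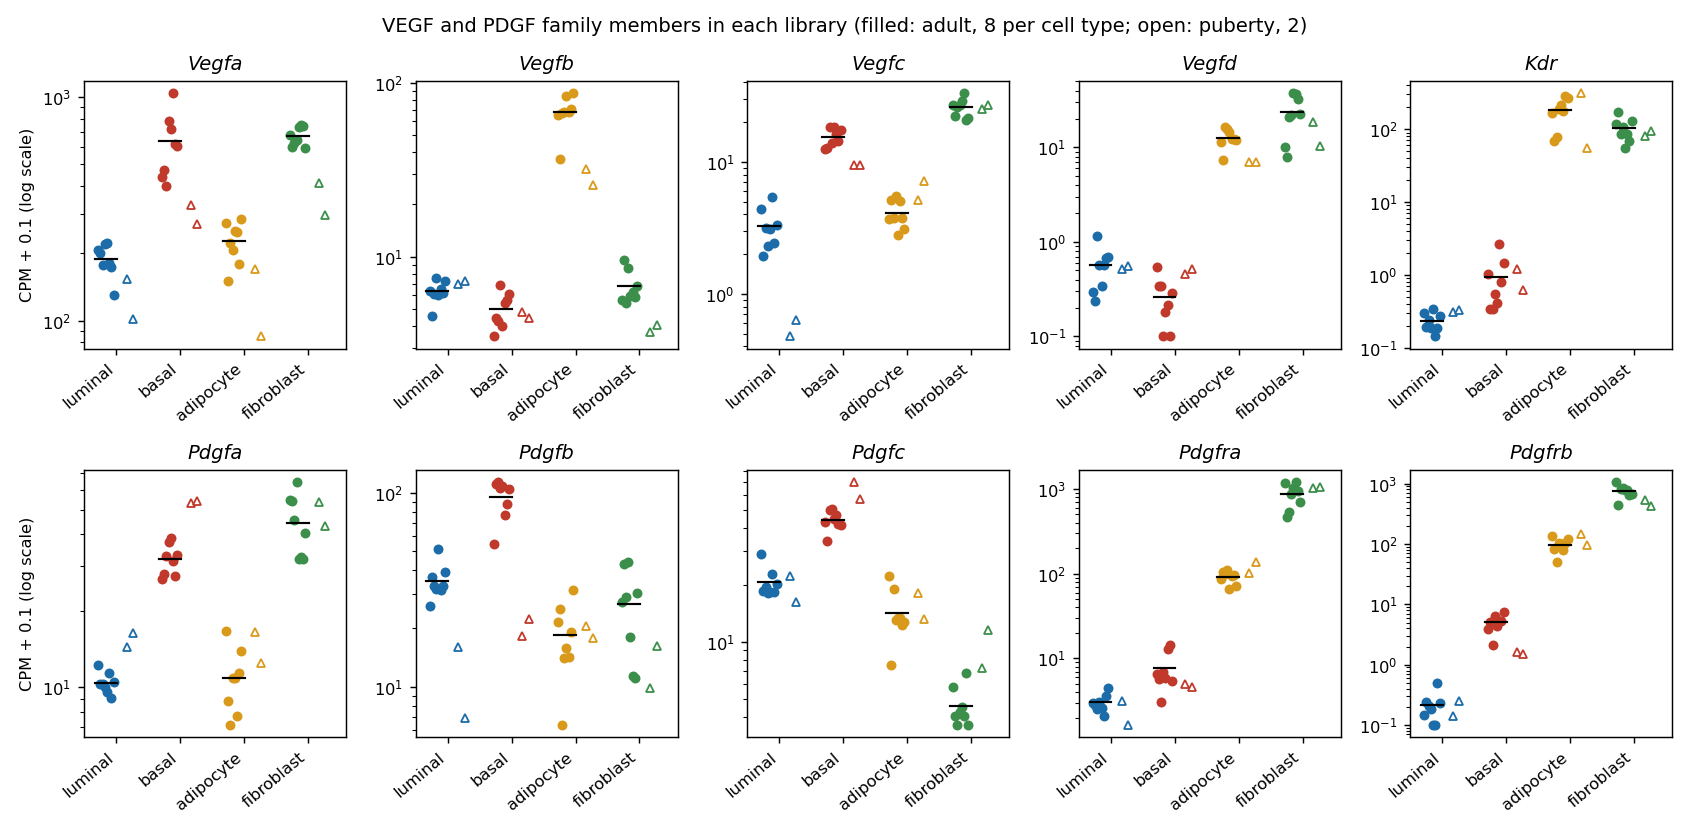
CPM of each of the 10 members in all 40 libraries, on a log10 axis of CPM + 0.1, with 1 panel a gene and 1 point a library, grouped by cell population. Filled circles are adult and open triangles pubertal libraries, and bars mark the adult means. All 8 adult fibroblast libraries lay above every adult library of the other populations for Pdgfra and Pdgfrb, and all 8 adult adipocyte libraries did for Vegfb.

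Among the VEGF ligands, Vegfa had the highest level per length in each adult population. Its mean was 156 RPKM (CPM per kilobase of exon) in fibroblasts and 148 RPKM in basal cells, against 53.0 RPKM in adipocytes and 44.1 RPKM in luminal cells. In CPM, Vegfa ran from 591 through a median of 659 to 752 in fibroblasts, from 402 through 610 to 1038 in basal cells, from 150 through 236 to 285 in adipocytes and from 130 through 190 to 222 in luminal cells. Fibroblasts and basal cells overlapped, and so did adipocytes and luminal cells, while neither pair overlapped the other. Vegfa was 3.28-fold lower in luminal than in basal cells (log2 −1.71 ± 0.15, SE) and 2.95-fold lower in adipocytes than in fibroblasts (log2 −1.56), both past the threshold. Its differences between basal cells and fibroblasts (log2 −0.12, adjusted p = 0.465) and between luminal cells and adipocytes (log2 −0.27, adjusted p = 0.0876) did not pass. The latter passed with DESeq2, with RLE scaling and without both diestrus adipocyte libraries.

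Vegfb, a VEGF ligand best known from heart, muscle and fat, was highest in adipocytes. There it ran from 36.3 through a median of 67.7 to 87.0 CPM (mean 68.0 ± 15.3, SD, n = 8), against means of 6.65 ± 1.52 (fibroblasts), 6.23 ± 0.906 (luminal cells) and 4.91 ± 1.15 (basal cells). Even the lowest adipocyte library, diestrus replicate 2, lay above every library of the other populations, whose highest value was 9.51 CPM. Vegfb was 10.0-fold higher in adipocytes than in fibroblasts (log2 3.32 ± 0.16, adjusted p = 1.66e-13), 10.8-fold higher than in luminal cells and 13.8-fold higher than in basal cells. The other 3 populations overlapped in their Vegfb values: luminal cells did not differ from fibroblasts beyond the spread (adjusted p = 0.517). Basal cells were 1.38-fold lower than fibroblasts (adjusted p = 0.0112), a call that was lost when CPM was scaled by library totals alone (adjusted p = 0.316). The difference between luminal and basal cells was small (log2 0.35, adjusted p = 0.0443) and was called in 19 of 32 fits that each left out 1 library.

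Vegfc and Vegfd, the lymphatic ligands, were both highest in fibroblasts and differed in their next site, basal cells for Vegfc and adipocytes for Vegfd. Vegfc ran from 20.6 through 26.3 to 33.0 CPM in fibroblasts and from 12.3 through 15.1 to 18.3 CPM in basal cells, which did not overlap, and was 1.68-fold lower in basal cells (log2 −0.74). In adipocytes and luminal cells its medians were 3.68 and 3.04 CPM, and these 2 populations did not differ beyond the spread (log2 −0.35, adjusted p = 0.0726). That difference passed with the replicate pool as a block, with DESeq2, with RLE scaling and without both diestrus adipocyte libraries. Vegfd ran from 7.92 through 22.1 to 37.4 CPM in fibroblasts and from 7.22 through 12.3 to 16.2 CPM in adipocytes, with a 1.70-fold difference (adipocytes over fibroblasts log2 −0.76 ± 0.19, adjusted p = 0.000985) although the libraries overlapped. Epithelial Vegfd was close to the detection limit: the 8 basal libraries held 24 counts in all with 2 libraries at 0, a pooled level of 0.168 CPM (95% exact Poisson interval 0.108 to 0.250, counting error only), and the 8 luminal libraries held 90 counts, or 0.492 CPM (0.396 to 0.605). Reads without molecular identifiers are not independent molecules, so these intervals understate the error.

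Kdr, the VEGF receptor that carries most of the Vegfa signal in blood vessels, was highest in adipocytes and fibroblasts. It ran from 69.3 through 183 to 283 CPM in adipocytes and from 54.6 through 96.7 to 171 CPM in fibroblasts, and these values overlapped. The difference was 1.72-fold in favour of adipocytes (log2 0.78 ± 0.25, adjusted p = 0.00694). In basal cells 126 counts over 8 libraries gave a pooled 0.883 CPM (0.736 to 1.05), and in luminal cells 24 counts gave 0.131 CPM (0.0841 to 0.195). Basal cells were 129-fold below fibroblasts (log2 −7.01) and 222-fold below adipocytes (log2 −7.79).

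Kdr and the summed endothelial markers were both higher in the stromal populations than in the epithelial ones. Pecam1, the endothelial marker CD31, ran from 299 to 955 CPM in adult fibroblasts and from 152 to 436 CPM in adipocytes, against 2.19 to 9.66 CPM in basal and 0.975 to 2.21 CPM in luminal cells. All 12 endothelial markers together ran from 1508 to 3908 CPM in fibroblasts and from 670 to 1951 CPM in adipocytes, so their order was the reverse of that of Kdr. As a percent of that sum, Kdr ran from 9.23 through a median of 12.9 to 16.1 in adipocytes and from 2.18 through 3.62 to 5.34 in fibroblasts, and the ranges did not overlap. In basal and luminal cells, where Kdr was lowest, Tek, Cldn5 and Robo4 were also near 0, each with a median under 1 CPM. Other markers of the list were present there. The sum of all 12 ran from 26.9 through a median of 37.3 to 64.9 CPM in basal cells. In luminal cells it ran from 39.8 through 49.3 to 68.9 CPM, so the order of the medians was the reverse of that of Kdr. The part of endothelial cells in the Kdr values was not tested.

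**Figure D2:**
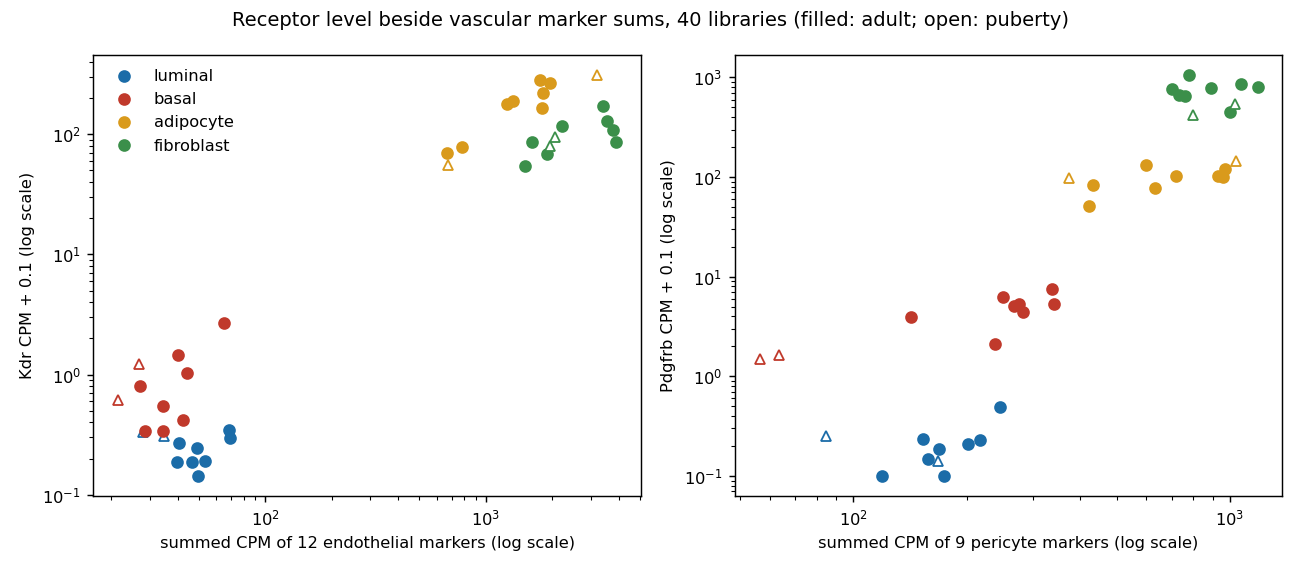
Receptor level (CPM + 0.1, log10 axis) against the summed CPM of a marker list (log10 axis), 1 point a library, coloured by cell population (filled circles adult, open triangles pubertal), with Kdr against 12 endothelial markers and Pdgfrb against 9 pericyte markers. Adult adipocytes held more Kdr for their endothelial sum (9.23 to 16.1%) than adult fibroblasts (2.18 to 5.34%), and fibroblasts more Pdgfrb for their pericyte sum (44.4 to 137%) than adipocytes (10.5 to 22.3%).

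The PDGF ligands were highest in different populations. Pdgfa, a ligand of Pdgfra, ran from 31.9 through 42.8 to 64.2 CPM in fibroblasts and from 26.6 through 32.1 to 38.7 CPM in basal cells, against medians of 10.7 CPM in adipocytes and 10.2 CPM in luminal cells. Fibroblasts were 1.37-fold above basal cells (basal over fibroblasts log2 −0.45, adjusted p = 0.00257), with overlapping libraries, and this call was lost when CPM was scaled by library totals alone (log2 −0.18, adjusted p = 0.246). Pdgfa was 3.06-fold lower in luminal than in basal cells (log2 −1.62), while luminal cells and adipocytes did not differ beyond the spread (log2 −0.05, adjusted p = 0.750).

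Pdgfb, the ligand that recruits pericytes to vessels, was highest in basal cells at 54.5 through 105 to 114 CPM (mean 95.1 ± 20.7, SD, n = 8). No basal library overlapped another population. Luminal cells had a mean of 35.2 ± 7.46 CPM, fibroblasts 26.7 ± 12.7 and adipocytes 18.4 ± 7.72, and these 3 overlapped. Pdgfb was 2.70-fold lower in luminal than in basal cells (log2 −1.44 ± 0.22), 3.79-fold higher in basal cells than in fibroblasts and 5.48-fold higher in basal cells than in adipocytes. The order below basal cells was less certain. The luminal excess over fibroblasts (log2 0.49, adjusted p = 0.0462) and the deficit of adipocytes against fibroblasts (log2 −0.53, adjusted p = 0.0339) were lost with the replicate pool as a block (adjusted p = 0.0850 and 0.0714) and were called in 11 and 6 of 32 fits that each left out 1 library.

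Pdgfc, a second ligand of Pdgfra that is activated by proteases, was also highest in basal cells. Its values ran from 34.1 through 43.9 to 50.2 CPM there, from 18.1 through 18.9 to 28.9 CPM in luminal cells, from 7.39 through 13.1 to 22.3 CPM in adipocytes and from 3.52 through 4.06 to 6.77 CPM in fibroblasts. The fibroblast libraries lay below all others, and basal cells were 9.78-fold above them (log2 3.29 ± 0.19). Luminal cells were 4.57-fold (log2 2.19) and adipocytes 3.14-fold (log2 1.65) above fibroblasts. The difference of luminal cells over adipocytes (1.46-fold, adjusted p = 0.00685) was lost without luminal diestrus replicate 1 (log2 0.37, adjusted p = 0.0676), the highest luminal library. In the same fibroblasts Pdgfa was high and Pdgfc low, with mean levels of 14.2 and 0.882 RPKM, whereas basal cells held 10.2 RPKM of Pdgfa, 22.9 RPKM of Pdgfb and 8.63 RPKM of Pdgfc.

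Pdgfra and Pdgfrb, the PDGF receptors, were highest in fibroblasts, with mean levels of 86.3 and 138 RPKM. Pdgfra ran from 467 through 902 to 1212 CPM in fibroblasts and from 65.5 through 95.1 to 110 CPM in adipocytes, and was 9.42-fold lower in adipocytes (log2 −3.24 ± 0.24). In basal cells it had a median of 6.08 CPM and in luminal cells 2.80 CPM, 118-fold and 298-fold below fibroblasts. Pdgfrb ran from 445 through 775 to 1065 CPM in fibroblasts and from 51.0 through 101 to 133 CPM in adipocytes, and was 7.92-fold lower in adipocytes (log2 −2.99 ± 0.22). Basal cells held 2.03 through 5.10 to 7.46 CPM of Pdgfrb, 155-fold below fibroblasts (log2 −7.28). Luminal cells held 21 counts over 8 libraries, with both metestrus libraries at 0, which gave a pooled 0.115 CPM (0.0711 to 0.176). The unsorted adipocyte fraction also held fibroblast markers. The sum of 10 such genes ran from 4298 to 7929 CPM in adult adipocytes and from 21210 to 59750 CPM in adult fibroblasts. As a percent of that sum, Pdgfra ran from 1.14 to 1.96 in adipocytes and from 1.30 to 3.11 in fibroblasts. Pdgfrb ran from 0.679 to 3.00 and from 1.307 to 2.795. Both pairs of ranges overlapped, and the part of fibroblasts in the adipocyte values was not tested.

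Pericyte markers were present beside Pdgfrb. The sum of 9 pericyte markers ran from 702 to 1184 CPM in adult fibroblasts and from 423 to 971 CPM in adipocytes, against 142 to 342 CPM in basal and 119 to 245 CPM in luminal cells. Mcam made up most of the basal sum, at a median of 262 CPM, and Notch3 most of the luminal sum, at 144 CPM. The pericyte markers Cspg4, Kcnj8 and Higd1b had medians of at most 1.28 CPM in both. Rgs5 had a median of 391.8 CPM in adipocytes and 81.9 CPM in fibroblasts, the reverse of the order of Pdgfrb. Pdgfrb was 44.4 to 137% of the pericyte sum in fibroblasts and 10.5 to 22.3% in adipocytes. The part of pericytes in the Pdgfrb values was not tested.

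Placing ligands and receptors side by side per length, fibroblasts held both PDGF receptors and Pdgfa, basal cells held the highest Pdgfb and Pdgfc with Pdgfra and Pdgfrb at 0.751 and 0.898 RPKM, and adipocytes held Vegfb at 42.4 RPKM with Kdr at 20.03 RPKM. Luminal cells had every receptor under 1 RPKM, while Vegfa was at 44.1 RPKM and Pdgfb at 8.46 RPKM. The highest mean over the lowest was 3.54-fold for Vegfa, 13.8-fold for Vegfb, 8.15-fold for Vegfc, 4.29-fold for Pdgfa, 5.17-fold for Pdgfb and 9.79-fold for Pdgfc, and it was above 100-fold for Vegfd, Kdr, Pdgfra and Pdgfrb.

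**Figure D3:**
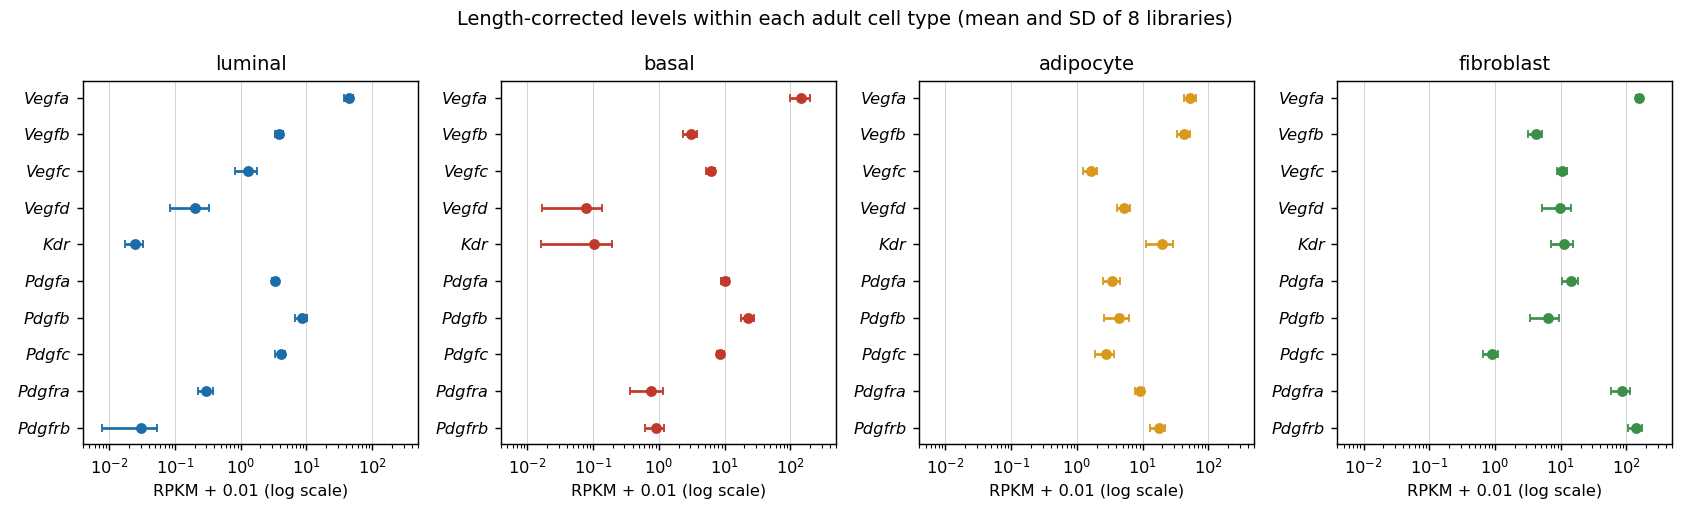
Mean level of each member in RPKM + 0.01, on a log10 axis, in 1 panel for each adult cell population. Bars are 1 SD over 8 libraries, shortened on the low side where they would reach 0. Fibroblasts held the most Pdgfrb (138 RPKM) and Pdgfra (86.3 RPKM), and Vegfa was the highest ligand in each population (44.1 to 156 RPKM).

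Other genes of both families had their highest adult levels in stroma. All 7 were lower in luminal cells than in fibroblasts, and all 7 were lower in luminal cells than in adipocytes. In these pairs 81% and 81.2% of all genes tested passed in either direction. Flt4, at most 0.780 CPM in luminal and 0.634 CPM in basal cells, entered the fit through its stromal libraries only. Flt1 and Nrp1, a VEGF receptor and a co-receptor of blood endothelium, had medians of 253 and 182 CPM in adipocytes and of 143 and 106 CPM in fibroblasts, and both were higher in adipocytes (log2 0.77 and 0.62), as Kdr was. Flt4, the receptor of Vegfc and Vegfd, had medians of 14.5 CPM in adipocytes and 13.3 CPM in fibroblasts. Pdgfrl, a PDGF receptor-like gene, was lower in adipocytes than in fibroblasts (log2 −4.06), as were Pgf, a ligand of Flt1 (log2 −1.36), and Nrp2, a co-receptor of Vegfc (log2 −0.45). Pdgfd, a ligand of Pdgfrb, had medians of 14.9 CPM in adipocytes and 13.8 CPM in fibroblasts and of 0.728 and 2.09 CPM in luminal and basal cells. Lymphatic endothelial markers (Prox1, Lyve1, Mmrn1 and Reln) summed to medians of 79.9 CPM in fibroblasts, 29.3 CPM in adipocytes, 82.1 CPM in basal and 4.29 CPM in luminal cells. In basal cells that sum stood beside Flt4 of at most 0.634 CPM, and the part of lymphatic endothelium in it was not tested.

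Of 8 genes for proteases and cofactors that process these ligands, 7 could be tested between adipocytes and fibroblasts, and all 7 were lower in adipocytes, where 78.4% of all genes tested passed in either direction. Plat, the protease that activates Pdgfc, was among them (log2 −3.80), with medians of 912 CPM in fibroblasts, 222 CPM in basal cells, 65.1 CPM in adipocytes and 16.7 CPM in luminal cells. Plau, a related protease, was at log2 −2.14 in the same comparison. Klk1 could not be tested. In the remaining pairs, whose shares over all genes (73.6 to 84.2%) are given above, 6 of the 7 were higher in basal cells than in adipocytes and 1 lower, 1 higher and 3 lower than in fibroblasts, and in luminal cells 3 were higher and 3 lower than in basal cells, 4 higher and 3 lower than in adipocytes and 2 higher and 3 lower than in fibroblasts. Of 16 targets of the hypoxia-inducible factor, the group to which Vegfa also belongs, 2 were higher and 12 lower in luminal than in basal cells. In this pair 73.6% of all genes tested passed in either direction. The median log2 difference of the targets was −1.135 against −0.036 over all genes. The lower targets included P4ha1 (log2 −2.83), Higd1a (log2 −1.46), Adm (log2 −4.01) and Ldha (log2 −1.36). Between basal cells and adipocytes 11 targets were higher and 4 lower in basal cells (84.2% of all genes passed). Between adipocytes and fibroblasts 6 were higher and 8 lower in adipocytes (78.4%). The part of hypoxia in the Vegfa values was not tested.

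The genes whose profiles over the 20 groups of population and stage were most like those of the receptors included the endothelial marker Tek. Kdr was nearest to Tek, Bcl6b and Adgrl4, each with Pearson's r = 0.996 over 20 group means of log2(CPM + 1). The genes near Pdgfra included Ctsk and Kcne4 (r = 0.995 each), and Pdgfrb was nearest to Il6, S1pr3 (r = 0.995 each) and Mmp19 (r = 0.994). Among the ligands, Vegfb was nearest to Pxmp2 (r = 0.994), Tmem143 and Mccc1, and Vegfd to Olfml1, Lrrc17 and Pi16 (r = 0.988 to 0.989). The groups share cell population, pool and sequencing run, and r describes them only.

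Pubertal cell populations were compared in the same way, with 2 libraries each. Of 60 combinations, 40 passed. The members passing were 5 of 10 between luminal and basal cells (37.2% of all genes), 6 between luminal cells and adipocytes (39.7%), 9 between luminal cells and fibroblasts (52.2%), 8 between basal cells and adipocytes (40.9%), 6 between basal cells and fibroblasts (35.8%) and 6 between adipocytes and fibroblasts (28.4%). Vegfb was at 32.0 and 25.8 CPM in adipocytes, 7.47-fold above fibroblasts (log2 2.90, adjusted p = 0.000657), and Pdgfra was 8.85-fold lower in adipocytes than in fibroblasts (log2 −3.15). Pdgfc was 6.47-fold higher in basal cells than in fibroblasts (log2 2.69). Vegfc in luminal cells had 16 counts in both libraries together, a pooled 0.432 CPM (0.247 to 0.702), and was 20.8-fold below basal cells (log2 −4.38). In puberty luminal Vegfc, Vegfd, Kdr and Pdgfrb and basal Vegfd all stayed under 1 CPM. These genes entered the pubertal fit through the other populations only, so the sizes of such differences are uncertain. Kdr in adipocytes was 312 and 55.0 CPM, beside endothelial sums of 3192 and 675 CPM, and did not differ from fibroblasts beyond the spread (log2 1.03, adjusted p = 0.270). Pdgfb passed in 0 of 6 pairs, with means between 11.4 CPM in luminal and 20.2 CPM in basal cells, whereas adult basal cells exceeded each other population.

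The next comparison asked whether the members moved over the estrous cycle within a population. None of 144 tests of a stage against the other 3 passed (28 in luminal cells, 36 in basal cells, 40 each in adipocytes and fibroblasts), and none of 216 pairs of stages did. At an unadjusted p under 0.05 there were 17 of the 144, of which 9 were in fibroblasts, 3 each in basal cells and adipocytes and 2 in luminal cells. Over all genes the share that passed was 0.471% in luminal proestrus, 1.21% in basal estrus, 0.00825% in basal proestrus, 11% in adipocyte diestrus and 0% in every other stage. Between pairs of stages it was 0.252% for luminal proestrus over diestrus, 0.195% over metestrus and 0.0569% over estrus, 0.0247% for basal proestrus over metestrus, 0.0801% for adipocyte estrus over diestrus and 0% in the rest, and for any difference among the 4 stages it was 0.122% in luminal cells, 0.0146% in adipocytes and 0% in basal cells and fibroblasts, with none of the members among these genes. Each stage had 2 libraries. The paper, from the same counts, reported far more differing genes for adipocyte pairs with diestrus and prominent changes in fibroblasts. The shares here come from a separate fit per population, and the reason for the difference was not tested. Where so few genes passed, the lack of a member call does not show a stable level. With DESeq2 1 stage test passed in basal cells and 2 in fibroblasts, and 0 did in luminal cells and adipocytes. Luminal Vegfd, Kdr and Pdgfrb and basal Vegfd were under the filter on low counts and were not tested.

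Vegfd in fibroblasts had the lowest unadjusted p of these tests. Its CPM in replicates 1 and 2 was 32.7 and 22.5 in proestrus, 20.8 and 21.8 in estrus, 37.4 and 36.9 in metestrus and 9.92 and 7.92 in diestrus. Both diestrus libraries lay below the other 6 and both metestrus libraries above them. The diestrus difference from the other 3 stages was log2 −1.59 ± 0.22 (unadjusted p = 6.717e-05, adjusted p = 0.177) and that of metestrus log2 1.14 ± 0.19 (adjusted p = 0.130), so neither passed, and 0 of 13068 genes did in fibroblast diestrus. Both passed with DESeq2 (adjusted p = 1.23e-06 and 0.00127), with no filter on low counts (1.86e-07 and 5.37e-05) and in 1 fit over all cell populations (0.0136 and 0.0364). Vegfd in adipocytes was 12.3 and 11.9 CPM in proestrus, 16.2 and 15.4 in estrus, 14.3 and 12.3 in metestrus and 11.3 and 7.22 in diestrus. Its diestrus difference of log2 −0.57 (adjusted p = 0.0982) passed, among the alternatives run, only when adipocyte diestrus replicate 1 was left out (log2 −0.83, adjusted p = 0.0208). The difference of the diestrus effect between adipocytes and fibroblasts was log2 1.096 ± 0.437 (adjusted p = 0.141) and did not pass.

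Fibroblast markers were higher in metestrus than in diestrus, as Vegfd was. Their sum over 10 genes was 59750 and 51380 CPM in metestrus fibroblasts and 38110 and 21210 CPM in diestrus, the last being the lowest of the 8 libraries. It was 46960 and 38140 CPM in proestrus and 40900 and 53950 CPM in estrus. The estrus sums overlapped those of metestrus, and the proestrus sums those of estrus. The part of fibroblast markers in the Vegfd values was not tested. In the 4 metestrus and diestrus libraries Pdgfra was 1025 and 1212 CPM in metestrus and 1185 and 467 CPM in diestrus. Pdgfrb was 781 and 769 CPM in metestrus and 1065 and 445 CPM in diestrus. The 2 diestrus replicates thus spanned the whole adult fibroblast range of Pdgfrb.

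**Figure D4:**
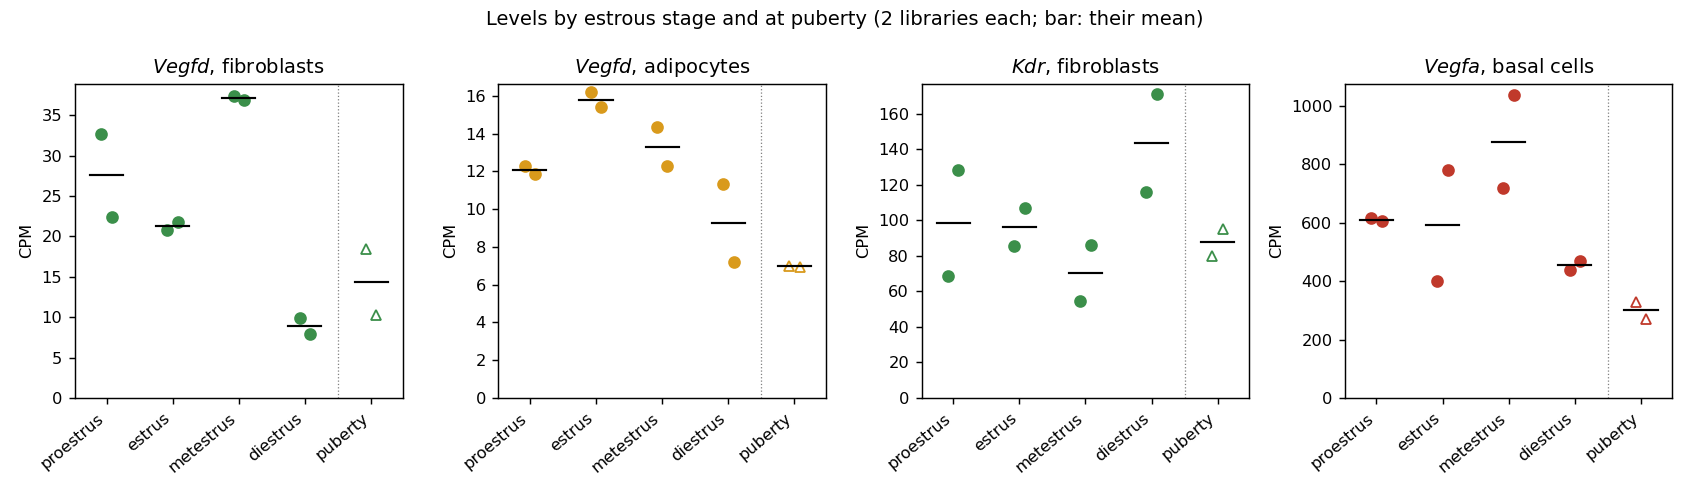
CPM (linear axis from 0) by estrous stage, and in puberty, with 2 points for the 2 libraries of each and a bar for their mean, for Vegfd in fibroblasts, Vegfd in adipocytes, Kdr in fibroblasts and Vegfa in basal cells. Vegfd in fibroblasts was 9.92 and 7.92 CPM in diestrus and 37.4 and 36.9 CPM in metestrus.

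Other stage differences did not pass either. Vegfa in basal cells was 718 and 1038 CPM in metestrus and 439 and 469 CPM in diestrus, with 616 and 604 CPM in proestrus and 402 and 780 CPM in estrus. The metestrus difference was log2 0.75 ± 0.22 (adjusted p = 0.106), which passed with DESeq2 (adjusted p = 0.0239) and with no filter on low counts (adjusted p = 0.000273). Kdr in fibroblasts was 116 and 171 CPM in diestrus and 54.6 and 86.2 CPM in metestrus, with log2 0.78 for diestrus (adjusted p = 0.228, and 0.00321 with no filter on low counts). The endothelial sums of these libraries were 2224 and 3395 CPM in diestrus and 1508 and 1616 CPM in metestrus. In estrus the sums were higher, at 3908 and 3783 CPM, while Kdr was 85.4 and 107 CPM. In proestrus the sums were 1903 and 3537 CPM, with Kdr at 68.7 and 128 CPM. The part of endothelial cells in these Kdr values was not tested. Pdgfb in fibroblasts was 18.1 and 11.3 CPM in metestrus and 27.3 and 42.9 CPM in diestrus, with log2 −0.99 for metestrus (adjusted p = 0.276, and 0.00215 with no filter on low counts). Among the other family genes, Pdgfd was lower in adipocyte diestrus (log2 −1.07, adjusted p = 0.0382), a stage that holds the library that stood apart.

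The last comparison set puberty against the adult gland within each population. Both ages were sequenced in separate runs, so age and run cannot be told apart. Of 36 tests 13 passed, 4 with higher and 9 with lower values in puberty. By population these were 3 of 7 members in luminal cells (10.8% of all genes), 6 of 9 in basal cells (49.3%), 2 of 10 in adipocytes (12.3%) and 2 of 10 in fibroblasts (18.9%).

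Pdgfb was lower in the pubertal epithelium. In basal cells it was 18.3 and 22.2 CPM against 54.5 through 105 to 114 CPM in adults, 4.64-fold lower (log2 −2.21 ± 0.27, adjusted p = 0.000122). In luminal cells it was 16.0 and 6.83 CPM against 25.9 through 32.9 to 51.1 CPM, 3.03-fold lower (log2 −1.60 ± 0.34, adjusted p = 0.0181), and without luminal puberty replicate 2 the difference was log2 −1.11 (adjusted p = 0.0632). The pubertal libraries lay below all adult ones in both. Pubertal fibroblasts (9.75 and 16.2 CPM) and adipocytes (20.4 and 17.8 CPM) overlapped the adult libraries, and a test of the difference between populations was not run.

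Pdgfa and Pdgfc, the Pdgfra ligands, were higher in pubertal basal cells. Pdgfa was 52.9 and 54.0 CPM against 26.6 through 32.1 to 38.7 CPM in adults (1.70-fold, log2 0.77 ± 0.12, adjusted p = 0.000470). Pdgfc was 69.9 and 56.7 CPM against 34.1 through 43.9 to 50.2 CPM (1.46-fold, log2 0.55 ± 0.12, adjusted p = 0.00380), a call that was lost without basal puberty replicate 1 (log2 0.40, adjusted p = 0.0927) and in 1 fit over all populations (adjusted p = 0.114). In fibroblasts Pdgfc was 7.11 and 11.4 CPM against 3.52 through 4.06 to 6.77 CPM (2.23-fold, log2 1.15 ± 0.29, adjusted p = 0.0253). That call was lost on library totals (adjusted p = 0.0606), without either pubertal library (0.0603 without replicate 1, 0.305 without replicate 2) and without metestrus replicate 1 or 2 (0.0527 and 0.0542). Luminal Pdgfa was 14.3 and 16.2 CPM against 8.94 through 10.2 to 12.2 CPM (1.47-fold, log2 0.55 ± 0.15, adjusted p = 0.0443) and stayed past the threshold in 2 of 10 fits that left out 1 library.

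**Figure D5:**
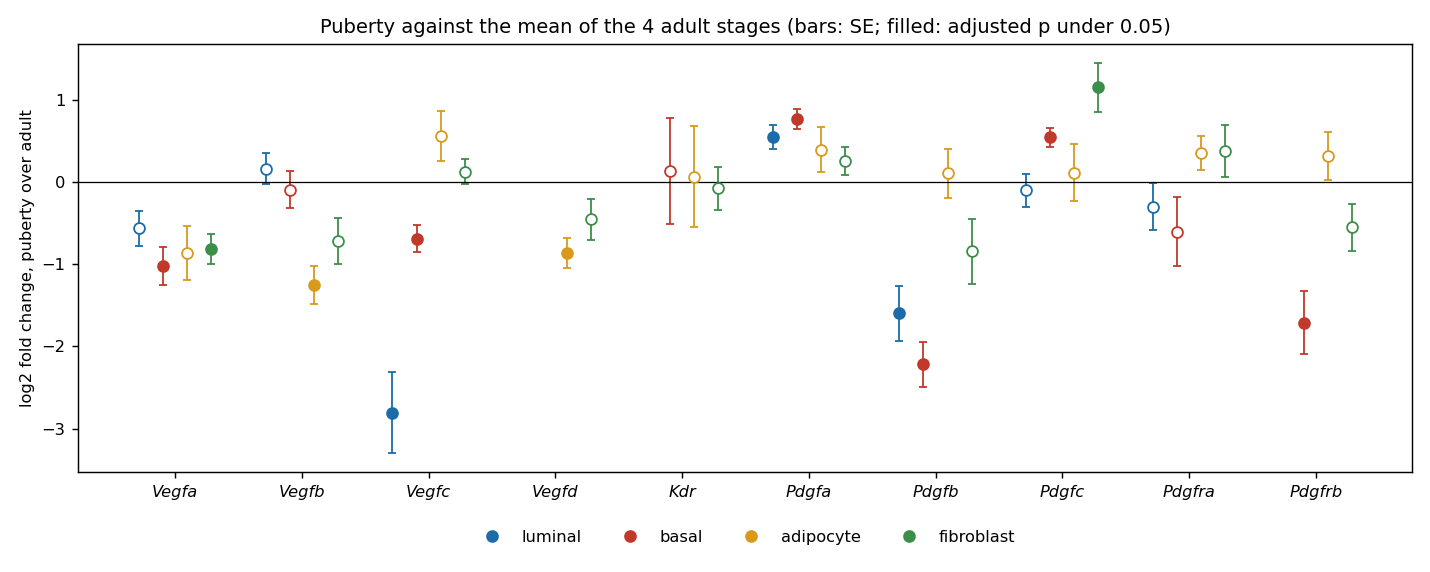
Log2 difference of puberty over adult for each member in each cell population, with bars of 1 standard error and filled symbols for an adjusted p under 0.05. Of 36 symbols 13 are filled, and the lowest 2 are luminal Vegfc (log2 −2.81) and basal Pdgfb (log2 −2.21). Luminal Vegfc passed the filter on low counts through its adult libraries only.

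The VEGF ligands were lower or not different in puberty. Vegfa in basal cells was 330 and 271 CPM against 402 through 610 to 1038 CPM (2.03-fold lower, log2 −1.02 ± 0.23, adjusted p = 0.00414) and in fibroblasts 414 and 297 CPM against 591 through 659 to 752 CPM (1.76-fold lower, log2 −0.81 ± 0.19, adjusted p = 0.0185). Each pubertal library lay below all adult ones in both populations. The basal call was lost without basal puberty replicate 2 (adjusted p = 0.0691) and the fibroblast call without either pubertal library (0.057 and 0.201). Luminal (log2 −0.56, adjusted p = 0.120) and adipocyte Vegfa (log2 −0.86, adjusted p = 0.119) did not pass.

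Vegfc was lower in pubertal epithelium, at 0.376 and 0.537 CPM in luminal cells against 1.84 through 3.04 to 5.33 CPM in adults (log2 −2.81 ± 0.49, adjusted p = 0.00748). The size of this difference is uncertain, since the pubertal luminal libraries held 16 counts in all. Vegfc passed the filter on low counts in this luminal fit through its adult libraries only. In basal cells it was 9.41 and 9.31 CPM against 12.3 through 15.1 to 18.3 CPM (1.61-fold lower, log2 −0.69 ± 0.16, adjusted p = 0.00568), a call lost without either pubertal library (0.0598 and 0.0636). Vegfb in pubertal adipocytes was 32.0 and 25.8 CPM against 36.3 through 67.7 to 87.0 CPM (2.38-fold lower, log2 −1.25 ± 0.23, adjusted p = 0.0255), and Vegfd there was 6.99 and 6.96 CPM against 7.22 through 12.3 to 16.2 CPM (1.82-fold lower, log2 −0.86 ± 0.18, adjusted p = 0.0314). They passed in 4 and 2 of 10 fits that left out 1 library. Adipocyte markers summed to 11900 and 5077 CPM in these pubertal libraries against 5686 to 23580 CPM in adults, and their part in Vegfb and Vegfd was not tested.

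Among the receptors, Pdgfrb in basal cells was lower in puberty (1.53 and 1.40 CPM against 2.03 through 5.10 to 7.46 CPM, 3.27-fold, log2 −1.71 ± 0.39, adjusted p = 0.00434), a call lost without basal puberty replicate 2 (adjusted p = 0.0552). The basal pericyte sum was 56.4 and 63.5 CPM in puberty against 142 to 342 CPM in adults, and its part was not tested. Pdgfra and Kdr passed in none of the populations in which they were tested. Pubertal fibroblasts held 1036 and 1041 CPM of Pdgfra and 543 and 419 CPM of Pdgfrb, within or close to the adult ranges, although their fibroblast marker sums of 128000 and 91970 CPM lay above all adult ones (21210 to 59750 CPM).

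Immediate early and dissociation stress genes moved with age as well. Of 16, 12 were lower in pubertal basal cells, 9 in fibroblasts, 2 in luminal cells and 0 in adipocytes, where 49.3%, 18.9%, 10.8% and 12.3% of all genes passed in either direction. Their sums in basal cells were 2669 and 3462 CPM in puberty and 4579 to 8065 CPM in adults, and in fibroblasts 8005 and 7048 CPM against 10240 to 22400 CPM. The part of the stress response in the members' differences was not tested. Against the same shares, 3 of the hypoxia-inducible factor targets were higher and 3 lower in pubertal basal cells, and luminal cells had 2 of each. Only 1 fell in adipocytes, and only 1 rose in fibroblasts. Of the ligand-processing genes, 4 of 6 tested were lower in puberty in basal cells and 3 of 7 in fibroblasts, with none higher, while 1 was higher and 1 lower in luminal cells and 1 higher in adipocytes. The basal count lies near the share over all genes.

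Of the other family genes, the few that differed by age were higher in puberty. These were Flt1 (log2 2.40) and Pdgfrl (log2 1.09) in luminal cells, Nrp1 (log2 2.08) in basal cells and Pdgfd (log2 1.29) in fibroblasts. The shares of all genes that passed by age were 10.8% (luminal), 49.3% (basal), 12.3% (adipocyte) and 18.9% (fibroblast). More of these genes were higher than lower in the luminal (818 and 525) and fibroblast fits (1660 and 849). The basal fit was nearly even (3096 and 3056). With so few calls, their shared direction is not read as a pattern.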

How the data were processed

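RNA was measured by stranded polyA sequencing in 40 libraries of 4 mammary cell populations, in 20 groups of population and stage with 2 libraries each. The authors aligned the reads to GRCm38 with TopHat2 2.1 and Bowtie 1.1.0 and deposited raw HTSeq counts per gene, in 1 table for adults and 1 for puberty. The deposited log2 tables hold the same counts scaled to library totals and were not used further. Counts were tested with edgeR 4.0.16 (quasi-likelihood F-test, TMM factors, R 4.3.3) after removing genes that did not exceed 1 CPM in 2 or more of the fitted libraries, with Benjamini-Hochberg adjustment over all genes tested and a threshold of 0.05. Adult populations were compared over the means of the 4 stages in 1 fit of 32 libraries, pubertal populations in a fit of 8, stages and ages in a fit per population. Printed CPM use TMM factors shared by all libraries, and RPKM use GENCODE M21 exon length. Alternatives used DESeq2 1.42.0, RLE factors, library totals, no filter, a replicate block, a joint fit and each library left out. Fits were tested on simulated data.

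The members, gene lists and tests were chosen with earlier results of these data known. All 10 members are named, with the other family genes, up to 4 of another list with the smallest adjusted p, and per member the 3 genes with the most similar profile, of which 1 is not reported here. Replicates are pools of different mice, and p-values measure the spread between these pools. Adult libraries with the same stage and replicate number came from the same pool of mice in all 4 populations, so the numbers pair the populations. Their deviations from the group means correlated between −0.082 and 0.296 (median 0.083). Pubertal numbers pair them less fully, since fat replicate 2 was taken at another age. The stage comparisons lie between pools. Across adult stages the number marks early or late within the stage only where these could be told apart, and pubertal numbers do not carry that meaning.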

Additional observations from a re-analysis of the deposited data

Results flagged for a closer look

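In 3 of 40 groups of 8 adult libraries (a member in a cell population), 1 library stood further from the others than Dixon's critical value for 8 samples allows, and chance gives about 1 in 20. Vegfb in adipocytes was 36.3 CPM in diestrus replicate 2, with the next library at 64.8 CPM (gap over range 0.563). Pdgfc in luminal cells was 28.9 CPM in diestrus replicate 1, with the next at 22.8 CPM (0.567). Pdgfrb in luminal cells was 0.395 CPM in proestrus replicate 1, which is 9 counts, with the next at 0.138 CPM (0.651).

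For Vegfd the fitted diestrus effect in basal cells minus that in adipocytes was log2 2.23 (adjusted p = 0.0497). In this comparison 11.1% of all genes passed, and 1 of the 10 members did. The basal libraries held 0 to 9 counts of Vegfd, under the filter on low counts when fitted alone, and the gene entered the joint fit through the stromal populations, so no difference is read from this value.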

How the results depend on the processing

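Of the 60 adult combinations 55 passed, and 52 to 56 did with 1 library left out. With the replicate pool as a block 54 passed, and Pdgfb lost its calls between luminal cells and fibroblasts (adjusted p = 0.0850) and between adipocytes and fibroblasts (0.0714). Of the 60 pubertal combinations 40 passed, 34 to 42 with 1 library left out and 40 with the block. Beyond these the block changed the calls of Vegfc between luminal cells and adipocytes, which it gained, and of Pdgfa by age in luminal cells, which it lost (adjusted p = 0.0589), and no other. The block left the stage counts at 0 and the age counts at 2, 6, 2 and 2 in luminal cells, basal cells, adipocytes and fibroblasts. Stage calls appeared without the filter on low counts (1 in luminal cells, 4 in basal cells, 5 in fibroblasts), with DESeq2 (1 in basal cells, 2 in fibroblasts) and in the joint fit (2 in fibroblasts). With 1 library left out they ranged from 0 to 0 in luminal cells, basal cells and fibroblasts and from 0 to 2 in adipocytes (2 without diestrus replicate 1). The age counts ranged from 1 to 5 in luminal cells (1 without puberty replicate 2, 5 without puberty replicate 1), 3 to 6 in basal cells (3 without puberty replicate 2), 0 to 2 in adipocytes (0 without either pubertal library, either proestrus library, estrus replicate 2 or metestrus replicate 1) and 0 to 2 in fibroblasts (0 without either pubertal library), and on library totals 1 passed in adipocytes and 1 in fibroblasts. The cause of these changes was not tested. Library totals shifted the median of all genes by up to 0.473 (log2) in adults and 0.469 in puberty, and 19 of 80 mean levels moved by more than their SD. Leaving both diestrus adipocyte libraries out was chosen after seeing the data and gave 56 adult calls. The TMM reference was adipocyte diestrus replicate 2, which stood apart, and it changed in 22 of the 32 fits that left out 1 adult library, so values there also moved by rescaling. Levels near 0 in epithelium are limited by depth.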
